A study of Mus musculus with 6 samples.

Results

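The 10 genes described here encode contractile proteins of smooth muscle: Acta2, Tagln, Cnn1, Cnn2, Myl9, Tpm1, Tpm2, Tpm4, Lmod1 and Cald1. They were taken as every probe set whose deposited gene symbol names 1 gene, and that gene a member, which gave 18 of the 22690 probe sets on the array and 10 of 13213 genes. Of the 10 genes, 6 had a single probe set and 4 had several. RNA came from mOS482, a mouse osteosarcoma line derived from a spontaneous tumour null for Rb and p53. All cells were stably infected and selected in hygromycin at 200 ug/ml, in DMEM with 10% serum. On 3 arrays they carried a scrambled shRNA and on 3 arrays an shRNA against Sox2, a transcription factor of stem cells. The labels describe triplicate plates at 80% confluence of the infected cells, so that the 3 arrays of a group are plates of the same infected cells, with 1 hairpin per group. P-values here measure only the spread between plates and arrays. The values are on a log scale taken as log2, and had been centred per probe set near the scrambled arrays. Levels within a probe set are therefore unknown, and only differences between arrays are given.

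Smooth muscle contracts when the regulatory light chain of myosin is phosphorylated and myosin pulls on filaments of alpha smooth muscle actin. Tropomyosins lie along these filaments, and calponin and caldesmon bind them and restrain myosin. The same genes are turned on in myofibroblasts and in other mesenchymal cells, where they mark stress fibres. Many of them are activated by serum response factor (SRF) and its coactivators of the myocardin family, which act at a DNA element called the CArG box.

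Promoter sequences of the members are shown first, because that element is the known shared feature of smooth muscle genes. RefSeq (GRCm38.p6) held a promoter window of 300 bases, from 250 bases before to 50 after the start site, for 9 of the 10 members, with 2 starts for Cald1. Tagln was not among them. A perfect CArG box reads CC, then 6 letters A or T, then GG, and its reverse complement has the same form, so that 1 search covers both strands. It was found in 2 of the 10 member windows, those of Myl9 and Cnn2, and in 1.63% of all 32851 windows of the same length. A CArG box with 1 substitution was found in 5 member windows, those of Acta2, Myl9, Tpm1, Lmod1 and the upstream start of Cald1, and in 19.9% of all windows. Either form was present in 6 of the 10 member windows and 21.1% of all. The windows below are those of Acta2 (chr19:34255324-34255623, minus strand) and Lmod1 (chr1:135324563-135324862, plus strand), which were higher in the Sox2 shRNA arrays, of Myl9 (chr2:156775214-156775513, plus strand), which was lower, and of Cnn2 (chr10:79988350-79988649, plus strand), which was not called. Capitals mark CArG boxes, perfect or with 1 substitution.
Acta2: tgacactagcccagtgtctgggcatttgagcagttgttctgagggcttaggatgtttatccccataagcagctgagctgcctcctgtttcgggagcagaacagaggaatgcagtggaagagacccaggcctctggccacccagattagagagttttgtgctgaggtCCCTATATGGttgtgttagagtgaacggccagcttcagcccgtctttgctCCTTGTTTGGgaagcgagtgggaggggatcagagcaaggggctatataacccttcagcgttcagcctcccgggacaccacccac
Lmod1: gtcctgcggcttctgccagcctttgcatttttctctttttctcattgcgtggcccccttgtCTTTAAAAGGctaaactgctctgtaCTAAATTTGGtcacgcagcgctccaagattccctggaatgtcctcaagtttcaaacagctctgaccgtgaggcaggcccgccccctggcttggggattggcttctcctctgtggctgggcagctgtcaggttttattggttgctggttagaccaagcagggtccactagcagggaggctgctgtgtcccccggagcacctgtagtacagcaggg
Myl9: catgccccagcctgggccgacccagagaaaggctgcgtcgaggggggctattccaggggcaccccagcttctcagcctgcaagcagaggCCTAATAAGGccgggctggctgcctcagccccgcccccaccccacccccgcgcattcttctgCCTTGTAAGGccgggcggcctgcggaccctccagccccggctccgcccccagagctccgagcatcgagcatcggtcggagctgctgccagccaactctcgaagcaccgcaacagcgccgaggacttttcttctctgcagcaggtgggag
Cnn2: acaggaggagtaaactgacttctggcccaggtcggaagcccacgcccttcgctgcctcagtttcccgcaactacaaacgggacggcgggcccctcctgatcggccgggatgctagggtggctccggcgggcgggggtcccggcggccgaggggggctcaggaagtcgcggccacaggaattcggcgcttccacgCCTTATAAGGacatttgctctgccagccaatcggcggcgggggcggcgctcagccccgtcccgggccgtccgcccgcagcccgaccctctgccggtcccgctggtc
Counted from the start site, both capital runs of Acta2, at -84 and -34, and both of Lmod1, at -189 and -164, hold 1 substitution. Myl9 has a perfect box at -161 and 1 with a substitution at -99, and Cnn2 a perfect box at -56. A match is a description of these letters and not a site of binding.

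**Figure D1:**
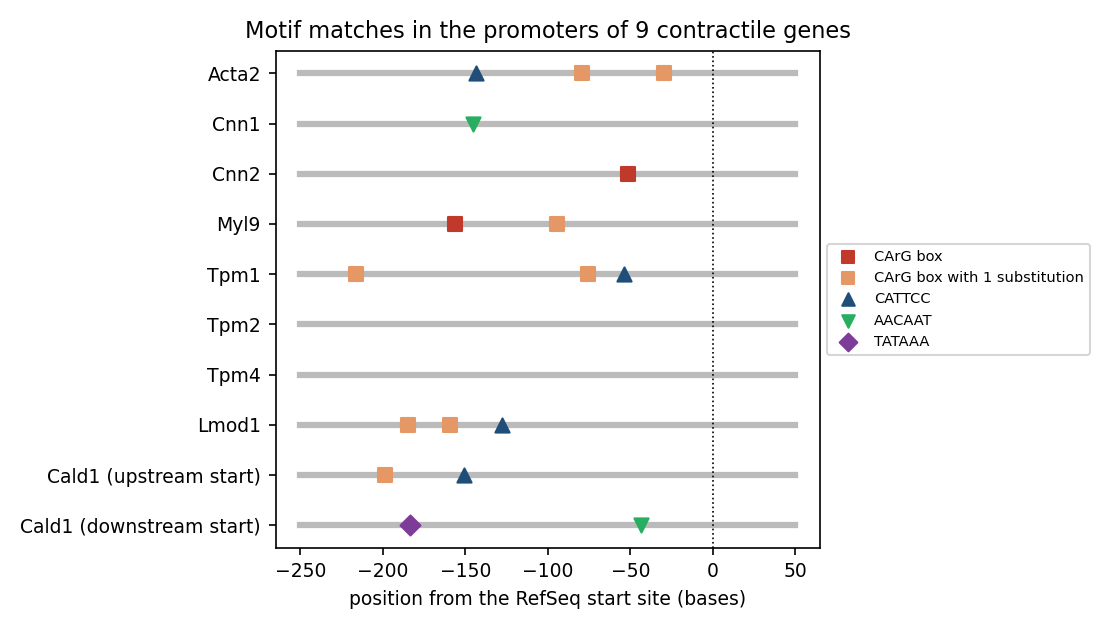
Motif matches in the RefSeq promoter windows of 9 member genes, drawn by distance from the start site in bases. Squares mark CArG boxes (dark) or CArG boxes with 1 substitution (light). Triangles and the diamond mark the 6-letter words searched. The 2 perfect boxes lie in Cnn2 and Myl9, and Tpm2 and Tpm4 show no match of any word.

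Other words were searched in the same windows. CATTCC, the MCAT element bound by TEAD factors, was present on either strand in 4 of the 10 member windows (Acta2, Tpm1, Lmod1 and the upstream start of Cald1) and in 14.7% of all windows. AACAAT, a core of the sites bound by Sox proteins, was present on either strand in 2 windows (Cnn1 and the downstream start of Cald1) and in 10.7% of all. The word TATAAA, on the gene's own strand only, was present in 1 member window and 8.32% of all. None of these words overlapped a CArG box in the member windows.

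The Sox2 probe set did not fall, and array controls differed between the groups. The probe set of Sox2 differed by 0.27 ± 0.15 (SE, n = 3 arrays per group, limma adjusted p = 0.181), so the directions below belong to arrays that bear the Sox2 shRNA label. The mean of 45 spike-in probe sets, designed to detect control RNA added in fixed amounts, was 0.44 higher in these arrays. Which of the 45 lie above background is unknown in centred values. The Actb control gave a difference between its 3' and 5' probe sets, 1 measure of RNA integrity, of 1.55, 0.65 and 0.58 in the Sox2 shRNA arrays, by number, and of 0.32, -0.027 and -0.32 in the scrambled ones. In neither of these did the groups overlap (two-sided exact permutation p = 0.1 for each, the smallest that 3 against 3 arrays allow). The same 3' minus 5' difference was 0.29 higher for Gapdh, where the groups overlapped (exact permutation p = 0.3), and 0.25 higher for the transferrin receptor, where they did not (p = 0.1 by the same exact test). Fits with the spike-in level or the Actb measure as a covariate were also made. Since neither measure overlapped between the groups, these fits cannot tell its part from that of the hairpin. A lost call can come from a wider SE. With the spike-in covariate Cald1 1424768_at went from 0.92 ± 0.20 to 1.13 ± 0.36. It can also come from a smaller difference, as in Myl9 1452670_at, from -1.07 ± 0.30 to -0.40 ± 0.49.

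Of the 18 member probe sets, 10 were higher and 2 lower in the Sox2 shRNA arrays by limma, at a Benjamini-Hochberg adjusted p under 0.05 over all 22626 probe sets tested. Over all those probe sets 14.4% were higher and 20.1% lower, 34.6% in all. The rises lay in Acta2, Tagln, Tpm2, Lmod1 and Cald1, and the falls in Myl9 and Tpm1. Values of the groups did not overlap in 14 of the 18 probe sets (10 higher and 4 lower), where 53.2% of all did not (26.7% higher and 26.5% lower). The median difference of the 18 was 0.37, and 0.080 for all probe sets. A rise past 2-fold occurred in 1 member probe set, for Acta2, and a fall past 2-fold in 1, for Myl9, where 2.75% of all probe sets rose and 4.84% fell by that much, 7.59% in all. With the spike-in covariate 5 member probe sets were higher and 0 lower, and with the Actb covariate 5 and 1. When scrambled array 1 or 3 was left out, or Sox2 shRNA array 3, there was 1 lower member probe set, Tpm1 1423721_at. These are bulk RNA values, in which a change in the number of expressing cells and a change in RNA per cell cannot be told apart.

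**Figure D2:**
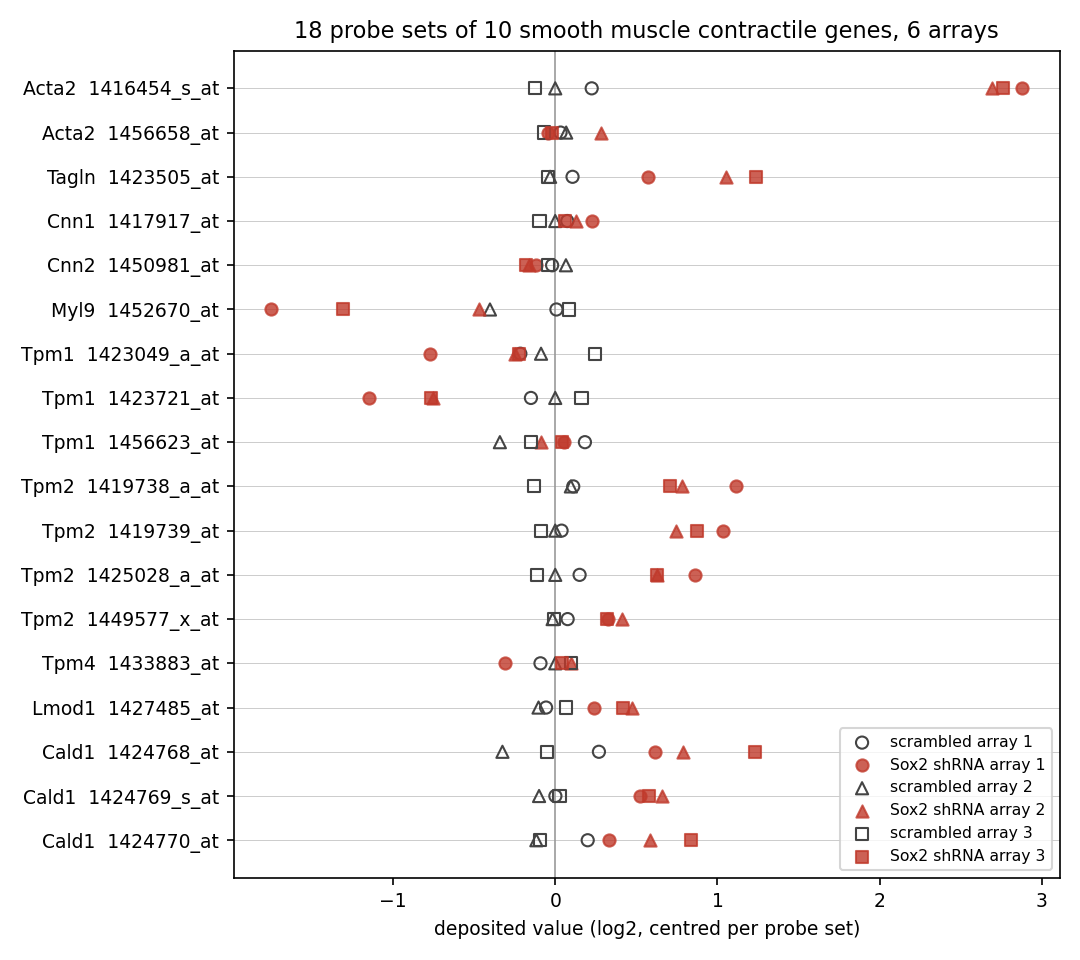
Deposited log2 values of the 18 member probe sets on each array, centred per probe set. Open symbols are the 3 scrambled arrays and filled symbols the 3 Sox2 shRNA arrays, with 1 marker shape per array number. Acta2 1416454_s_at stands apart near 2.8 in all 3 Sox2 shRNA arrays, while the second Acta2 probe set stays near 0.

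Alpha smooth muscle actin, Acta2, had the largest rise of the members in 1 of its 2 probe sets. Probe set 1416454_s_at read, in the order of array number, 0.22, 0 and -0.13 with the scrambled hairpin and 2.88, 2.69 and 2.76 with the Sox2 hairpin. All Sox2 shRNA values lay over 2 log2 units above every scrambled value. The difference was 2.75 ± 0.12 (SE, n = 3 arrays per group, limma adjusted p = 5.63e-06), or 6.71-fold, and only 0.354% of probe sets differed by more in size. Probe set 1456658_at read 0.033, 0.068 and -0.068 in the scrambled arrays and -0.042, 0.28 and -0.021 in the Sox2 shRNA arrays. The groups overlapped, and the difference was 0.063 ± 0.12 (95% interval -0.21 to 0.34, limma adjusted p = 0.695). Both probe sets align to chromosome 19 on the minus strand, 1416454_s_at over 14398 bases from 34315413 to 34329810 and 1456658_at over 2107 bases from 34316006 to 34318112, in the deposited table, whose build is not stated. The second alignment lies within the first, and its 3' end stops 593 bases short. The suffix _s_at marks probes that can match transcripts of more than 1 gene, and the deposited table does not name any other gene for it. Among the other muscle actins, in fits by gene, gamma smooth muscle actin, Actg2, differed by 0.42 ± 0.22 and skeletal actin, Acta1, by 0.29 ± 0.12, neither called, and cardiac actin, Actc1, was at 0.29 ± 0.090 (limma adjusted p = 0.037). Its only probe set was not called in the fit of probe sets (limma adjusted p = 0.058), and the call by gene was lost with arrays centred on their median (0.24), without scrambled array 1 (0.28), 2 (0.30) or 3 (0.28) and with the spike-in (0.10) or Actb (0.13) covariate. The mean of the Acta2 probe sets differed by 1.4 ± 0.092, which lies between the 2 probe sets and describes neither.

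Transgelin, Tagln, also called SM22, binds actin filaments and is an early marker of smooth muscle. Its probe set 1423505_at read 0.11, -0.031 and -0.047 in the scrambled arrays and 0.57, 1.05 and 1.24 in the Sox2 shRNA arrays. The Sox2 shRNA arrays were all above the scrambled ones, with array 1 the lowest. Tagln rose by 0.94 ± 0.17 (limma adjusted p = 0.00411), or 1.93-fold. It was called in every fit with 1 array left out and with both covariates, with which it was 1.42 (spike-in) and 1.31 (Actb).

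The calponins did not pass the test. Calponin 1, Cnn1, which inhibits the actomyosin ATPase in smooth muscle, read 0.074, 0 and -0.097 in the scrambled arrays and 0.23, 0.13 and 0.060 in the Sox2 shRNA arrays. The lowest Sox2 shRNA value fell below the highest scrambled one, and the difference was 0.15 ± 0.10 (95% interval -0.085 to 0.38, limma adjusted p = 0.279). Calponin 2, Cnn2, the form of non-muscle and smooth muscle cells, read -0.019, 0.066 and -0.042 in the scrambled arrays and -0.12, -0.16 and -0.18 in the Sox2 shRNA arrays. Its groups did not overlap, with a difference of -0.15 ± 0.091 (95% interval -0.37 to 0.056, limma adjusted p = 0.215). In simulated data with the spreads of these arrays, limma recovered 14% of 50 probe sets changed by 0.5 on the log2 scale and 68% of 50 changed by 1. Smaller changes were not simulated. The simulation left 22426 of 22626 probe sets unchanged, whereas 34.6% were called in the arrays themselves. With fewer changes the threshold on the adjusted p is harder to pass, so these shares do not give the recovery in the arrays.

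Tropomyosins differed among themselves. Tropomyosin 2, Tpm2, or beta tropomyosin, rose in all 4 of its probe sets. Probe set 1419739_at read 0.039, 0 and -0.088 in the scrambled arrays and 1.04, 0.75 and 0.87 in the Sox2 shRNA arrays. The difference was 0.90 ± 0.11 (limma adjusted p = 7.41e-04). Probe set 1419738_a_at rose by 0.84 ± 0.14 and 1425028_a_at by 0.69 ± 0.12. The smallest rise was that of 1449577_x_at, whose suffix marks probes prone to cross-hybridise, with 0.33 ± 0.092 (limma adjusted p = 0.0257). In none of the 4 did the groups overlap, and they align to nearly the same stretch of chromosome 4, from 43527582 to 43536411 or 43536324. The call of 1449577_x_at was lost without scrambled array 1 (0.36), 2 (0.32) or 3 (0.32) and without Sox2 shRNA array 2 (0.30). Of the 4, only 1419739_at was called with either covariate (0.66 with the spike-in level and 0.69 with the Actb measure).

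Tropomyosin 1, Tpm1, or alpha tropomyosin, fell in 1 of its 3 probe sets. Probe set 1423721_at read -0.15, 0 and 0.16 in the scrambled arrays and -1.15, -0.75 and -0.77 in the Sox2 shRNA arrays. It fell by 0.89 ± 0.14 on the log2 scale (limma adjusted p = 0.00247). Probe set 1423049_a_at read -0.22, -0.088 and 0.24 in the scrambled arrays and -0.77, -0.25 and -0.22 in the Sox2 shRNA arrays. Its groups touched without overlapping, and the difference was -0.39 ± 0.18 (95% interval -0.82 to 0.027, limma adjusted p = 0.129). Probe set 1456623_at read 0.18, -0.34 and -0.15 in the scrambled arrays and 0.053, -0.087 and 0.044 in the Sox2 shRNA arrays, which overlapped, with a difference of 0.11 ± 0.14 (limma adjusted p = 0.580). The alignments differ at the 3' end. That of 1423721_at reaches farthest, and those of 1423049_a_at and 1456623_at stop 5303 and 5384 bases before it. The deposited table does not say which transcripts of Tpm1 each probe set reads. The fall of 1423721_at came to -0.42 with the spike-in covariate, which was not called, and to -0.49 with the Actb covariate, which was. The mean of the 3 probe sets fell by 0.39 ± 0.11, but this was not called without scrambled array 1 (-0.40), 2 (-0.45) or 3 (-0.33) or with either covariate (-0.097 and -0.13).

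Tropomyosin 4, Tpm4, a form of non-muscle cells, read -0.091, 0 and 0.096 in the scrambled arrays and -0.31, 0.095 and 0.045 in the Sox2 shRNA arrays. Its groups overlapped, and the difference was -0.058 ± 0.13 (95% interval -0.36 to 0.25, limma adjusted p = 0.746). The probe set 1433883_at has 2 alignments in the deposited table, on chromosomes 8 and 17, so that its signal may come from more than 1 locus. Over the 3 tropomyosin genes the probe set differences thus ran from -0.89 to 0.90.

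**Figure D3:**
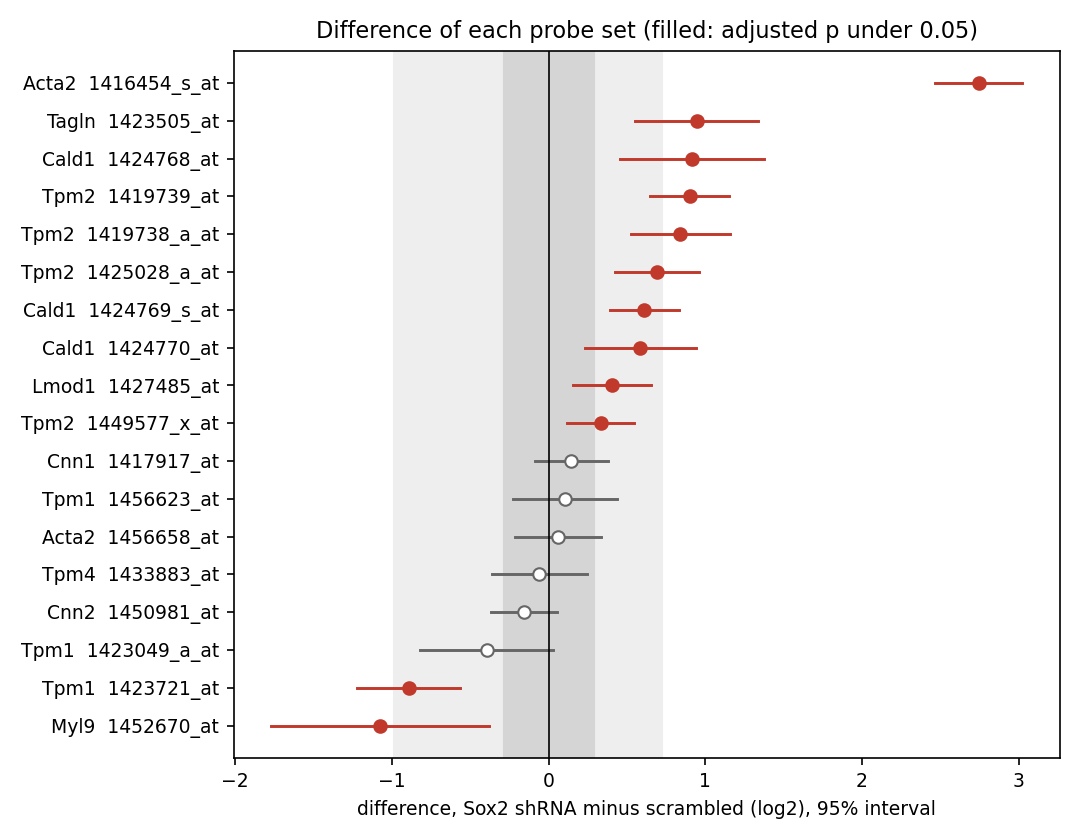
Difference of each member probe set, Sox2 shRNA minus scrambled, on the log2 scale with limma's 95% interval. Filled circles have an adjusted p under 0.05. Bands hold 50% (dark) and 90% (light) of all 22626 probe sets. Probe sets with intervals above 0 number 10, led by Acta2 1416454_s_at at 2.75, and Myl9 and Tpm1 1423721_at lie below 0 at -1.07 and -0.89.

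Caldesmon and leiomodin rose. Caldesmon 1, Cald1, binds actin, tropomyosin and calmodulin and inhibits myosin. Its probe set 1424769_s_at read 0.00087, -0.10 and 0.026 in the scrambled arrays and 0.52, 0.66 and 0.58 in the Sox2 shRNA arrays, and rose by 0.61 ± 0.096 (limma adjusted p = 0.00228). The spread was wider in 1424768_at, with 0.27, -0.33 and -0.050 in the scrambled arrays against 0.62, 0.79 and 1.23. That probe set rose by 0.92 ± 0.20 and 1424770_at by 0.59 ± 0.15. In all 3 the groups did not overlap, and all 3 carry the same alignment, to chromosome 6 from 34659484 to 34725466. The call of 1424770_at was lost without scrambled array 2 (0.53) or 3 (0.54) and without Sox2 shRNA array 2 (0.58). With either covariate 1424769_s_at was called (0.69 in both), and the other 2 were not, at larger values of 0.76 to 1.13.

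Leiomodin 1, Lmod1, nucleates actin filaments in smooth muscle. Its probe set 1427485_at read -0.056, -0.10 and 0.067 in the scrambled arrays and 0.24, 0.47 and 0.41 in the Sox2 shRNA arrays, which did not overlap. Lmod1 rose by 0.41 ± 0.11 (limma adjusted p = 0.0213), or 1.32-fold. This call was lost without scrambled array 1 (0.39), 2 (0.37) or 3 (0.45) and without Sox2 shRNA array 2 (0.36). It was kept at 0.62 and 0.60 with the spike-in and Actb covariates.

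Myl9, the regulatory light chain of smooth muscle myosin, was lower. The probe set 1452670_at read 0.0073, -0.40 and 0.085 in the scrambled arrays and -1.75, -0.47 and -1.31 in the Sox2 shRNA arrays. The groups did not overlap, but Sox2 shRNA array 2 lay just below scrambled array 2, and the SD over Sox2 shRNA arrays, at 0.65, was the widest of the member probe sets. Myl9 fell by 1.07 ± 0.30 on the log2 scale (95% interval -1.77 to -0.38, limma adjusted p = 0.0267), or 2.11-fold. The call was lost without scrambled array 1 (-1.02) or 3 (-0.98), without Sox2 shRNA array 3 (-1.01), and with the spike-in (-0.40) or Actb (-0.46) covariate. The value moved from -0.79 to -1.43 as 1 array was left out.

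Averaged per gene over the probe sets, 5 members rose (Acta2, Tagln, Tpm2, Lmod1 and Cald1), 2 fell (Myl9 and Tpm1) and 3 did not pass the test (Cnn1, Cnn2 and Tpm4). Over all 13213 genes 16.8% rose and 21.8% fell. The median difference of the members was 0.28, and that of all genes 0.078. It was 0.25, 0.32 and 0.26 in Sox2 shRNA arrays 1, 2 and 3 against the scrambled mean. The groups did not overlap in 8 of 10 members and in 56.9% of all genes (29.3% higher and 27.6% lower). Past 2-fold 1 member gene rose and 1 fell, where 2.68% of all genes rose and 3.62% fell, 6.30% in all. Falls numbered 0 when scrambled array 1 or 3 was left out, 1 when scrambled array 2 or else Sox2 shRNA array 3 was left out, and 0 with either covariate. Rises came to 4 without scrambled array 1 or 2 and with the spike-in covariate, with which Tpm2 was at 0.45 and not called. Lmod1 was the member not called without scrambled array 1 or 2. Acta2, Tagln and Cald1 were called higher in all fits with 1 array left out and with both covariates.

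**Figure D4:**
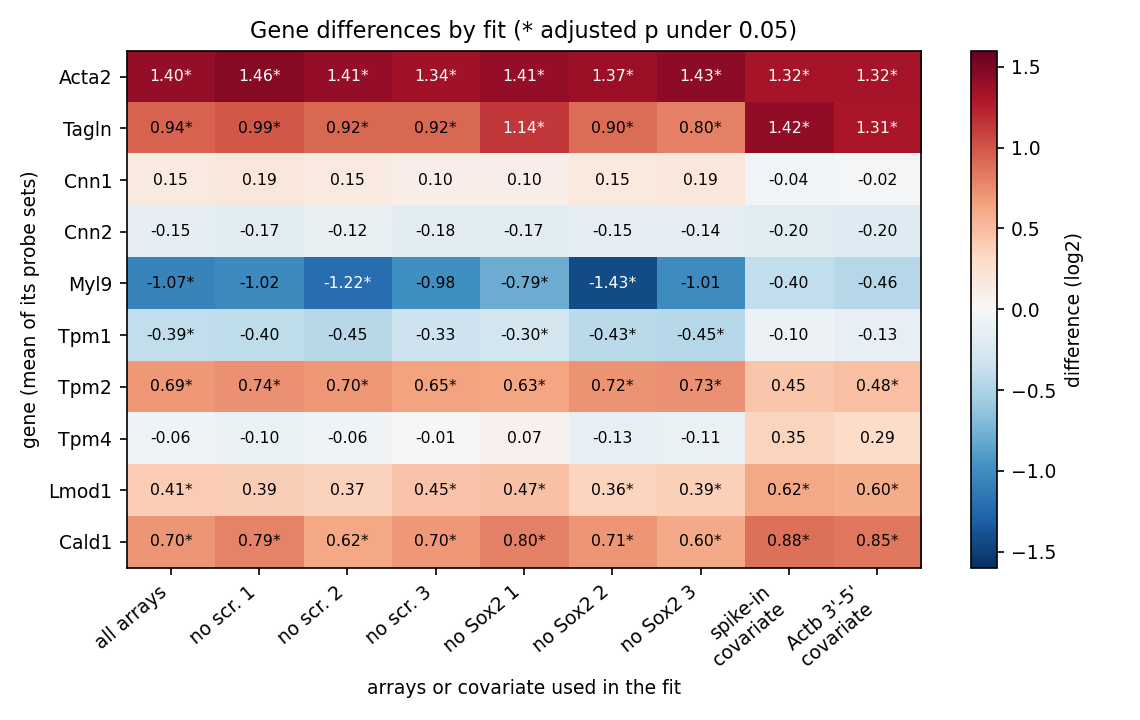
Gene differences of the 10 members on the log2 scale, as the mean of the probe sets of each gene, in the fit of all arrays, with each array left out and with each covariate. Asterisks mark an adjusted p under 0.05. The rows of Acta2, Tagln and Cald1 carry an asterisk in every column, and Myl9 and Tpm1 lose it in several. The row of Acta2 averages 2 probe sets that disagreed.

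Position and annotation were compared next. In the deposited gene ontology terms 6 members (Cnn1, Cnn2, Tpm1, Tpm2, Tpm4 and Cald1) carried the term for actin binding. That term was held by 240 genes, of which 53 rose and 47 fell (median 0.11). Over all genes 16.8% rose and 21.8% fell. The genes around a member did not all behave alike. Within 1 Mb of Acta2 on chromosome 19, 6 of 14 other probe sets were higher and 0 lower, with a median of 0.33, and the interferon-induced gene Ifit1, chosen after its value was seen, was the largest at 4.15 ± 0.097. Within 1 Mb of Tpm1 on chromosome 9, 11 of 20 were lower and 1 higher, with a median of -0.49. The nearest probe set there, that of the mitochondrial protein gene Lactb, lay 47105 bases away and fell by 1.01 ± 0.17, a call lost with the spike-in (-0.92) and Actb (-0.91) covariates. Around Cnn2 on chromosome 10, 38 of 89 were lower and 4 higher, with a median of -0.22. On the whole of chromosome 10, 35.0% of the probe sets were lower and 9.7% higher. These shares were 26.9% and 10.8% on chromosome 9, and 16.3% and 16.4% on chromosome 19. Around the other 7 members the median lay between -0.056 and 0.16. The part of position in the member differences was not tested.

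Other smooth muscle genes were counted in the same fit by gene, in which 16.8% of all genes rose and 21.8% fell. Of 15 measured genes of a list of smooth muscle genes that are no members, 4 rose, 0 fell and 11 did not pass the test, with a median of 0.26. At an unadjusted p under 0.05 there was 1 lower gene, calponin 3, Cnn3, at -0.20 ± 0.077 (limma adjusted p = 0.070), which is named after its value was seen. The muscle intermediate filament desmin, Des, rose by 0.55 ± 0.11 (limma adjusted p = 0.0062). Myosin light chain kinase, Mylk, rose by 0.39 ± 0.090 and the LIM protein Fhl1 by 0.69 ± 0.23. Smooth muscle myosin heavy chain, Myh11, a marker of the mature cell, was at 0.26 ± 0.10 (limma adjusted p = 0.078). None of the 3 probe sets of Mylk passed the test alone. Des was called in all fits with 1 array left out and with both covariates. Mylk was not called with either covariate nor without scrambled array 2 (0.34). Fhl1 was not called without scrambled array 1 (0.71), 2 (0.65) or 3 (0.71), without Sox2 shRNA array 2 (0.75) or with the spike-in (-0.13) or Actb (0.053) covariate. The 4 rises became 2 when scrambled array 2 was left out, 6 when Sox2 shRNA array 3 was, and 1 with either covariate.

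**Figure D5:**
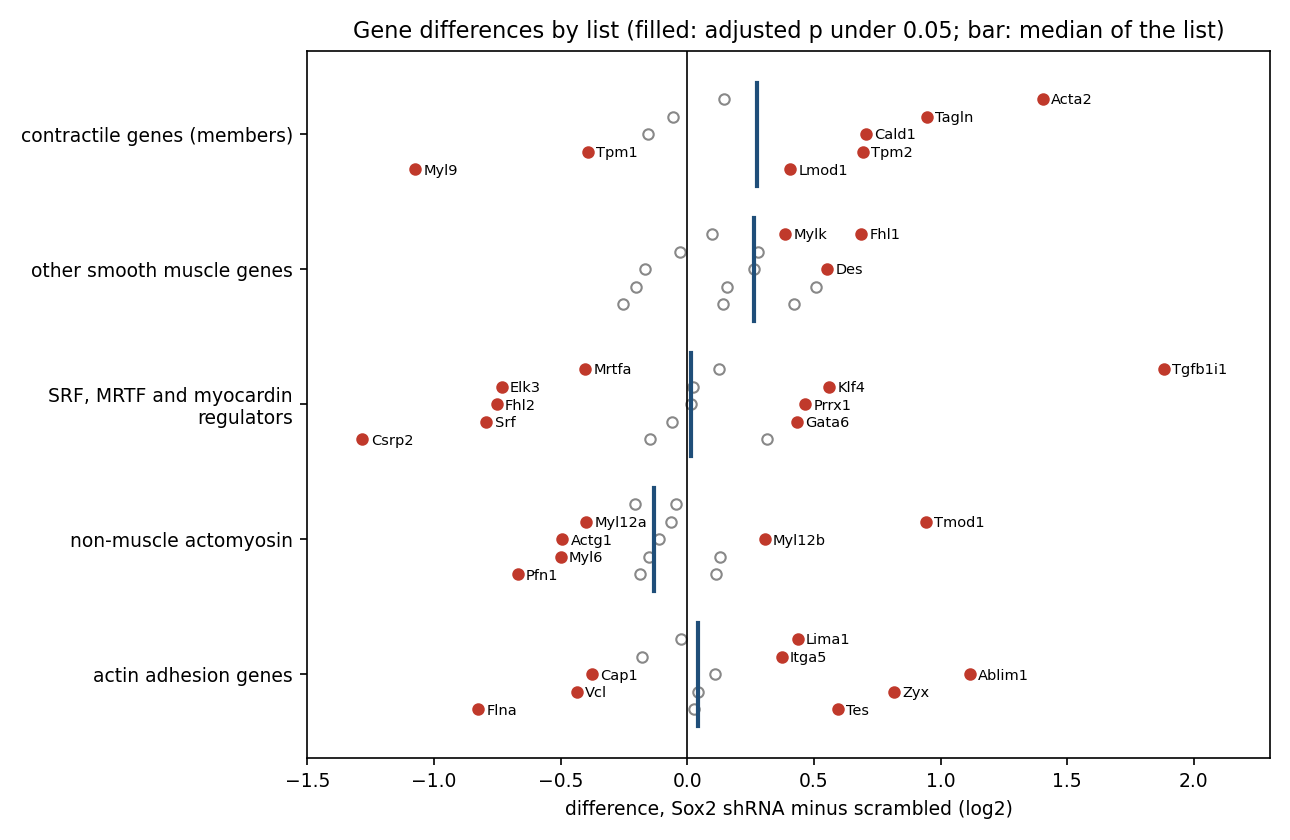
Gene differences, Sox2 shRNA minus scrambled on the log2 scale, in the members and 4 other lists of the contractile system. Each point is a gene, filled and named where the adjusted p was under 0.05, and the bar is the median of the whole list. In the second list 1 gene is counted in the median and not drawn. The medians of the first 2 lists are 0.28 and 0.26, and those of the others lie between -0.13 and 0.041.

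Transcriptional regulators of the contractile genes split. Of 15 genes of the SRF, MRTF and myocardin list, 4 rose and 5 fell, with a median of 0.013. Over all genes 16.8% rose and 21.8% fell. Tgfb1i1, or Hic-5, a LIM protein of focal adhesions, rose by 1.88 ± 0.092 (limma adjusted p = 9.46e-06). The other rises were those of Klf4 (0.56 ± 0.14), Prrx1 (0.47 ± 0.13) and Gata6 (0.43 ± 0.093), named after their values were seen. The LIM protein Csrp2 fell by 1.28 ± 0.19, Fhl2 by 0.75 ± 0.11 and the SRF partner Elk3 by 0.73 ± 0.084. The probe sets of Elk3 lay at -1.04, -1.02 and -0.14. Srf itself and its coactivator Mrtfa, both chosen after their values were seen, fell by 0.79 ± 0.16 and 0.40 ± 0.085, with limma adjusted p = 0.0070 and 0.0076. Srf was at -0.22 and Mrtfa at -0.24 with the spike-in covariate and not called, nor were they with the Actb covariate (-0.34 and -0.27). Csrp2 (-0.65) and Fhl2 (-0.44) lost their calls with the spike-in covariate. The 4 rises became 2 when scrambled array 1, 2 or 3 was left out, or Sox2 shRNA array 2, and the 5 falls became 1 with the spike-in and 3 with the Actb covariate. Myocardin, Myocd, was at -0.15 ± 0.097 (limma adjusted p = 0.25).

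Non-muscle partners of the same machinery went both ways. Of 14 genes of non-muscle actomyosin 2 rose and 4 fell (median -0.13), where 16.8% of all genes rose and 21.8% fell. The essential light chain Myl6 fell by 0.50 ± 0.088, cytoplasmic gamma actin, Actg1, by 0.49 ± 0.12 and profilin 1, Pfn1, by 0.67 ± 0.14, while the filament capping protein Tmod1 rose by 0.94 ± 0.14. Myl6 was called in all fits with 1 array left out and with both covariates. Pfn1 was not called with either covariate, and Actg1 neither with them nor without scrambled array 2 (-0.49) or 3 (-0.47). Tmod1 lost its call with the spike-in covariate (0.54). The 2 rises became 1 without scrambled array 1, 2 or 3 and with the Actb covariate and 0 with the spike-in covariate, and the 4 falls became 2 without scrambled array 2 and with either covariate.

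Actin adhesion genes, from a list drawn up as SRF targets, went both ways, 5 higher and 3 lower of 13, with a median of 0.041. Whether each of them is a target of SRF was not tested. The shares over all genes were 16.8% higher and 21.8% lower. Ablim1, an actin-binding LIM protein, rose by 1.12 ± 0.10 and zyxin, Zyx, by 0.81 ± 0.078. Filamin A, Flna, fell by 0.83 ± 0.13 and vinculin, Vcl, by 0.44 ± 0.086. The Vcl probe sets disagreed, at -0.97 and 0.099. Ablim1 and Zyx were called in all fits with 1 array left out and with both covariates, Flna lost its call with the spike-in covariate (-0.39), and Vcl was not with either covariate (-0.32 and -0.33). The 3 falls became 2 when scrambled array 2 or 3 was left out, or Sox2 shRNA array 1 or 2, 0 with the spike-in and 1 with the Actb covariate.

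Markers of other cells that hold contractile genes were read beside these values, in the fit where 16.8% of all genes rose and 21.8% fell. Of 7 pericyte markers 0 fell and 4 rose, among them Mcam (1.09 ± 0.12) and Pdgfrb (0.63 ± 0.12). The other 3, Rgs5 (0.13 ± 0.079), Abcc9 (0.045 ± 0.098) and Kcnj8 (-0.013 ± 0.084), were not called and are named after their values were seen. The mean over the list was -0.0062 to 0.021 in the scrambled and 0.34 to 0.44 in the Sox2 shRNA arrays. With either covariate 2 of the 7 were called, since Cspg4 and Notch3 lost their calls. In the fit of probe sets, 1 probe set each of Pdgfrb (0.45), Cspg4 (0.17) and Notch3 (0.095) was not called, and in these the groups overlapped. Of 10 markers of skeletal and cardiac muscle 2 rose and 1 fell, with means of -0.031 to 0.026 and 0.089 to 0.52. The cardiac troponin T gene Tnnt2, which lies within 1 Mb of Lmod1, rose by 1.90 ± 0.088, and the troponin C gene Tnnc1 fell by 0.84 ± 0.22, a call lost without scrambled array 1 (-0.75) or 2 (-0.85) and without Sox2 shRNA array 2 (-0.66) or 3 (-0.75). The 2 rises became 1 without scrambled array 1, 2 or 3 and with either covariate, and 6 without Sox2 shRNA array 3. Of 6 endothelial markers 0 rose and 0 fell by limma, with means of -0.082 to 0.039 and 0.050 to 0.28. At an unadjusted p under 0.05 there was 1, Kdr, at 0.50 ± 0.17 (limma adjusted p = 0.051), which was called without Sox2 shRNA array 2 (0.70). Of 6 macrophage and leukocyte markers 2 rose and 0 fell (means -0.046 to 0.031 and 0.17 to 0.45). These 2 rises, of Csf1r and Adgre1, became 1 without scrambled array 1, 2 or 3, with either covariate and with arrays centred on their median, and 3 without Sox2 shRNA array 2, where 1 fell. Of 9 osteoblast markers 2 rose and 2 fell (means -0.025 to 0.046 and 0.11 to 0.14). That mean holds large and opposite values, with Col1a1, a chain of type I collagen, at 3.52 ± 0.096 and the transcription factor Dlx5 at -2.69 ± 0.20. The 2 falls became 1 without scrambled array 1, 2 or 3 and with the spike-in covariate, and without Sox2 shRNA array 1 there were 3 rises and 3 falls. With either covariate there were 3 rises. Which markers lie at background is unknown in centred values, so the label osteosarcoma could not be checked by level, and the part of other cells in the member differences was not tested.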

How the data were processed

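Total RNA (100 ng per plate) from 3 scrambled and 3 Sox2 shRNA plates was hybridised to 1-colour Affymetrix mouse arrays. The deposited values are on a log scale taken as log2, processed with GCOS 1.4 and RMA per the submitters' processing notes, and centred per probe set by the authors, so levels and signal over background are unknown. No source used here states the log base or the arrays used for centring. The normalized matrix and the series matrix did not differ in any value.

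Control probe sets (64) were left out and limma 3.58.1 (R 4.3.3; lmFit, eBayes) was fitted to 22626 probe sets, without filter, and to the means of probe sets naming 1 gene (13213 genes; 21181 probe sets matched RefSeq). P-values were adjusted by Benjamini-Hochberg over each whole table, at 0.05. The method was tested on simulated data, with 7 of 22426 unchanged probe sets called. Replicate numbers were not taken as pairs. Correlations of same-numbered deviations were 0.12, -0.022 and 0.17, and those of arrays with other numbers ran from -0.24 to 0.19. With 3 arrays per group these values cannot decide whether the arrays were paired. Alternatives were other probe set rules, scaling, array weights, thresholds, a replicate block, the spike-in level as a covariate, each array left out and, added after seeing the data, an Actb covariate. Members and lists were chosen with earlier results of these data known. Named were all member probe sets and, from each other list, up to 4 called genes of smallest adjusted p, while Actg2, Acta1, Myh11, Myocd and those marked in the text were chosen after their values were seen. Some listed genes are not reported here. Deposited alignments name no build and were not compared with GRCm38.p6. Figures used matplotlib 3.10.9.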

Additional observations from a re-analysis of the deposited data

How the results depend on the processing

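Among all recomputed values 1396 kept their side of the threshold or moved by less than the limit set. Of the others 174 lost a call, 2 gained one, 142 moved and 5 reversed. These counts are no measure of stability. They include a refit of the series matrix, whose values are identical, so that it could only leave results unchanged. They also include the thresholds of 0.01 and 2-fold, which reuse the main fit, so that calls lost there come from the stricter threshold alone. A tested difference counted as reversed only where its sign changed and at least 1 of the 2 fits called it. Uncalled differences that changed sign are therefore among the 1396, such as Cnn1, at 0.15 and at -0.043 with the spike-in covariate. With the spike-in covariate 5 member probe sets were higher and 0 lower, and the member genes had 0 lower with a median of 0.40. With the Actb covariate 5 and 1 member probe sets were called, 0 member genes were lower and the median was 0.38. The median was 0.23 with arrays centred on their median, which lowered the median of all genes from 0.078 to 0.028, and 0.10 without _x_at and _s_at probe sets, where Acta2 was at 0.063. At an adjusted p under 0.01, 1 member probe set and 0 member genes were lower. At 2-fold or more 1 higher and 1 lower were called, for probe sets and genes alike. Taking for each gene its probe set of highest mean, 1 member gene was lower. In values centred near the scrambled arrays that rule picks the probe set with the most positive difference, so its values (here and below) follow from the selection and are no check of a result.

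With each array left out, higher member probe sets numbered 7 to 10 and lower ones 1 to 2. Member genes numbered 4 to 5 higher and 0 to 2 lower, with a median of 0.25 to 0.29. With the replicate block, 9 and 2 member probe sets and 5 and 2 member genes were called, where Tpm2 1449577_x_at (0.33) was not called. Of the genes beside the members, Actc1 (0.29) lost its call with the block and Kdr (0.50) gained one. With the spike-in covariate Adgre1 reversed to -0.015, Col1a2 to 0.016 and Fhl1 to -0.13. With the probe set of highest mean Tpm1 came to 0.11 and Vcl to 0.099, by that selection. The cause of the other reversals was not tested.

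Over all probe sets 3269 were higher and 4554 lower. These became 1243 and 1572 with the spike-in covariate, 1389 and 2012 with the Actb covariate, 1474 and 2771 at 0.01, 623 and 1094 past 2-fold, and 1570 to 4044 and 2918 to 4995 with each array left out. Over all genes, 2216 and 2874 became 961 and 1166, 1059 and 1429, 1058 and 1848, 354 and 478, and 1155 to 2695 and 1944 to 3135 in the same order, and 2512 and 1900 by the selection of the highest mean. With 3 arrays per group and 1 hairpin, 14% of simulated differences of 0.5 on the log2 scale were recovered, 68% of 1 and 92% of 2. That simulation left 22426 of 22626 probe sets unchanged, so its shares do not give the recovery in the arrays themselves. Background could not be read from centred values.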
